A study of Mus musculus with 6 samples.

Results

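The Ly6 surface antigen genes described here are Ly6a, Ly6c1, Ly6c2, Ly6d, Ly6e, Ly6g, Ly6i and Ly6k, taken as 8 of the 27179 genes of the deposited expression table by their mouse gene symbols. They were measured in YFP+Mac-1+c-Kit+ leukemia-initiating cells (LICs) of a mouse acute myeloid leukemia model, with 3 libraries under each of the labels WT and Asic3-null. In both groups, Lin- fetal liver cells of the named genotype had been infected with a retrovirus carrying MLL-AF9 and YFP and transplanted into lethally irradiated C57BL/6 recipients, so every library carries the MLL-AF9 fusion and the only genetic difference that the labels give is Asic3 (Asic3+/+ or Asic3-/-). Strain C57BL/6 and an age of 8 weeks are given for all 6 samples, with no statement of whether recipients were pooled. The table holds RPKM, that is, reads scaled by gene length and library depth. Levels of different genes are compared on this scale only as far as the length taken for each gene holds. The comparison of the groups asks whether these differentiation and stem cell antigens differed between LICs labelled as with and without the acid-sensing channel.

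Ly6 proteins are small, disulfide-bonded proteins held on the outer face of the cell membrane by a glycosylphosphatidylinositol (GPI) anchor. Several of them serve as flow cytometry markers of blood cells. Ly-6G and Ly-6C are the antigens seen by the Gr-1 antibody, Ly-6C marking monocytes and many myeloid cells and Ly-6G marking mature neutrophils, while Ly6a encodes Sca-1, a marker of hematopoietic stem and early progenitor cells. Neither Gr-1 nor Sca-1 was used to sort the cells sequenced here.

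By RefSeq, the members lie together on chromosome 15 of GRCm38, between 74762056 and 75159128, a span of 397 kb. In order along the chromosome they are Ly6d (74762056 to 74763567, minus strand), Ly6k (74796874 to 74799968, minus), Ly6e (74955025 to 74959904, plus), Ly6i (74979534 to 74983434, minus), Ly6a (74994877 to 74998031, minus), Ly6c1 (75044018 to 75048920, minus), Ly6c2 (75108161 to 75112066, minus) and Ly6g (75155261 to 75159128, plus). The exons of Ly6k are overlapped on the other strand by the antisense gene Gm17189. The library kit did not mark strand, so where these exons overlap, reads of Ly6k and of its antisense partner cannot be told apart.

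How closely the members resemble each other decides how firmly a short read can be given to one of them. The first 120 coding bases of the 5 most alike members are shown for this reason, 5′ to 3′ on the coding strand. They were read from the GRCm38 genome at the GENCODE M21 coding exons. Capitals mark bases that differ from Ly6c2 at the same position.
Ly6c2: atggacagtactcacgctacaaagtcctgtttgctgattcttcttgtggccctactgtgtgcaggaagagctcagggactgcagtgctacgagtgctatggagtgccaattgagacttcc
Ly6c1: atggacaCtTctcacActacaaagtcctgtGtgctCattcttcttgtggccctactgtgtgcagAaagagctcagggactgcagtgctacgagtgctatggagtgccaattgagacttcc
Ly6a: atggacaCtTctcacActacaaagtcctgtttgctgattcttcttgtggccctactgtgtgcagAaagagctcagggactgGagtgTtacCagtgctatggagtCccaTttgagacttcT
Ly6i: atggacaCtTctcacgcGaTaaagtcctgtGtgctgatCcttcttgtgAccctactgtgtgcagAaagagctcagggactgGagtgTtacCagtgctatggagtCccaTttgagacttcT
Ly6g: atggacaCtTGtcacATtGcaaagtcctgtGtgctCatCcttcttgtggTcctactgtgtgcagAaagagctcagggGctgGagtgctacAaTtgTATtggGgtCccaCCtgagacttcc
Their outer genomic coordinates, which include an intron, are chr15:75110578-75111667 for Ly6c2, chr15:75047420-75048511 for Ly6c1, chr15:74996519-74997604 for Ly6a, chr15:74981953-74983059 for Ly6i and chr15:75155645-75156743 for Ly6g. In this stretch Ly6c1 differed from Ly6c2 at 6 bases, Ly6a at 10, Ly6i at 14 and Ly6g at 22. Over the whole coding sequence, as a share of the longer of a pair, Ly6c1 and Ly6c2 were identical at 387 of 396 bases (97.7%), whereas Ly6a, Ly6i and Ly6g were 81.7%, 81.5% and 78.3% identical to Ly6c2. Ly6e, Ly6d and Ly6k were more distant from Ly6c2, at 54.5%, 57.3% and 51.0%.

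The same point was measured on the transcripts. Of all 50-base windows of a gene's transcripts, 31.2% in Ly6c2 and 32.8% in Ly6c1 were also found in another gene. For Ly6c2 the partner was almost always Ly6c1 (30.8% of its windows), and for Ly6c1 it was Ly6c2 (21.5%) or Ly6a (11.1%). With windows of 100 bases the shared parts fell to 14.9% for Ly6c2 and 10.1% for Ly6c1. Ly6a shared 19.0% of its 50-base windows, Ly6i 4.76% and Ly6g 0.448%, and no window of Ly6d or Ly6e was shared. Ly6k shared 32.7%, all of it with the antisense gene Gm17189. How the authors' counting treated a read that fits several genes is not given in the sources used here, so the split of reads between Ly6c1 and Ly6c2 is uncertain and their sum is reported too.

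**Figure D1:**
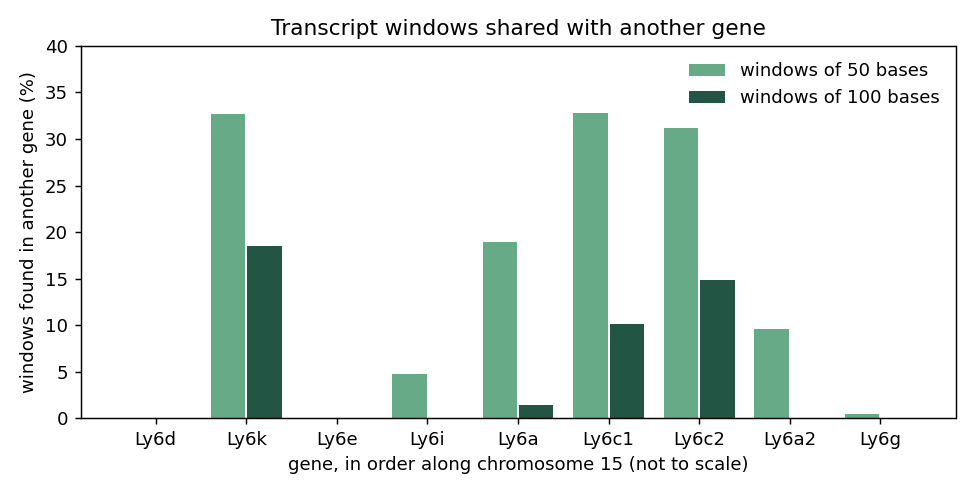
Bars give the percentage of a gene's transcript windows that also occur in another gene, for windows of 50 bases (light) and 100 bases (dark), with the genes in order along chromosome 15. Ly6k, Ly6c1 and Ly6c2 have the tallest bars, between 31.2% and 32.8% at 50 bases, while Ly6d and Ly6e have none. Ly6a2 is a neighbouring gene that is not a member.

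The bases upstream of a Ly6c2 neighbour enter the results below and are given here with those of Ly6c2 and Ly6g, as RefSeq promoter sequence on GRCm38.p6, 5′ to 3′ toward the gene, with bases inside the gene as RefSeq or GENCODE M21 give it left out for Ly6c2 and Ly6g. Capitals mark matches to GAGGAAGT, a motif of the kind bound by PU.1, the transcription factor of the myeloid lineage.
Ly6c2 (chr15:75112067-75112221, minus strand): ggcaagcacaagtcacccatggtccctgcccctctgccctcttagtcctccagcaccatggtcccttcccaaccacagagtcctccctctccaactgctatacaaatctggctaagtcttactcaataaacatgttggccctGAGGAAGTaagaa
Ly6a2 (chr15:75135129-75135378, minus strand): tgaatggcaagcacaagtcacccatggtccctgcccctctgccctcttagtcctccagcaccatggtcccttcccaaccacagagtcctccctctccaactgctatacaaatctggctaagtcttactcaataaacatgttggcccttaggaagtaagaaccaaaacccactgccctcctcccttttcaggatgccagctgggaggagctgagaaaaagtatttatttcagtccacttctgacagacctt
Ly6g (chr15:75155011-75155239, plus strand): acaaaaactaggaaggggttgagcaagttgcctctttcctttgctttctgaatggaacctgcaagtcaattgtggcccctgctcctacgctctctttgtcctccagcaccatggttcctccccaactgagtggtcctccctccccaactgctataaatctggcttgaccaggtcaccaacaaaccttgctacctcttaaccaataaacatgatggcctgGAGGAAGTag
The motif was searched on both strands in the 250 bases before the start that the promoter table gives, which for Ly6c2, Ly6c1 and Ly6f lies inside the gene's RefSeq span. It occurred in Ly6c2, in Ly6g and in the neighbour Ly6f, and not in Ly6c1 or Ly6a2, the promoters of these 5 genes being those that the table held. It was present in 2.44% of all 27025 promoters. Over these 250 bases Ly6a2 and Ly6c2 were 96.4% identical, and Ly6c1 and Ly6c2 were 65.6% identical. TTGCNNAAT, a C/EBP-type motif found in 2.17% of all promoters, occurred in Ly6f alone of the 5. None of the 5 held TTCNNNGAA, a STAT-type motif found in 7.18% of all promoters, or an interferon-response motif found in 3.04%. These are matches of letters and not measured sites.

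Some features of the libraries bear on every comparison. The depth was low, between 1947168 and 2381861 reads per library as inferred from the RPKM values. Asic3 itself had 9.12, 4.11 and 6.58 RPKM under the Asic3-null label and 1.22, 1.85 and 0.435 RPKM under the WT label, so the targeted gene ran against the labels (adjusted p = 0.0260 from limma, and 0.0655 to 0.1003 without Asic3-null replicate 1 or 3 or WT replicate 1 or 3, where the call was lost), and directions are given by label throughout, and a WT or Asic3-null library is one so labelled. Y-linked transcripts were at 0 in every library labelled Asic3-null and summed to between 81.4 and 118 RPKM under the WT label, while Xist was between 46.5 and 71.9 RPKM and between 0.0236 and 0.0573 RPKM. The sex of the sequenced cells and the genotype label therefore cannot be told apart. Of the gate markers, Kit overlapped between the groups, and Itgam, which encodes Mac-1, was 12.3 to 16.9 RPKM under the Asic3-null label and 55.1 to 89.5 RPKM under the WT label. Nothing in the labels says whether the 3 libraries of a group came from separate recipients. The p-values therefore rest on the spread between these libraries, which may be partly technical and need not be that between animals.

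The antigens were transcribed at very unequal levels. Ly6c2 and Ly6e together held between 97.8% and 98.7% of the reads on the members in every library. Ly6c1 and Ly6k were low, Ly6a, Ly6g and Ly6i had at most 1 read in any library, and Ly6d had none. By mean deposited RPKM over the 6 libraries, Ly6c2 ranked 42nd and Ly6e 80th among the 12037 genes tested, while Ly6c1 and Ly6k ranked 4953rd and 7421st. These ranks rest on the gene lengths behind the deposited values, and for Ly6c2 a longer annotated length would give 281 to 401 RPKM.

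Ly6c2, the main Ly-6C gene of these cells, had 1021, 1133 and 963 RPKM under the Asic3-null label and 1371, 1252 and 1325 RPKM under the WT label. All 3 Asic3-null libraries lay below all 3 labelled WT, with 5867 reads in all against 6774. The group means of 1039 ± 86.6 and 1316 ± 59.9 RPKM (SD, n = 3 each) gave a ratio of 0.790. On log2(RPKM + 1) the difference was -0.34 (standard error 0.11, 95% interval -0.59 to -0.09), with an unadjusted p of 0.0127 and an adjusted p of 0.166 from limma over all tested genes. The difference thus did not pass the adjusted threshold of 0.05, and the exact two-sided permutation test gave p = 0.10, the smallest that 3 against 3 libraries allow. In bulk RNA, fewer cells of a type and less RNA per cell cannot be told apart.

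Ly6c1, the close paralog whose product is also called Ly-6C, had 14.2, 18.9 and 15.3 RPKM under the Asic3-null label and 25.1, 18.1 and 25.6 RPKM under the WT label. These values rested on 54 to 100 reads a library. The groups overlapped, because WT replicate 2 lay below Asic3-null replicate 2. The means were 16.1 ± 2.46 and 23.0 ± 4.22 RPKM, a log2 difference of -0.48 (standard error 0.19, 95% interval -0.91 to -0.05). It did not pass the threshold (unadjusted p = 0.0314, adjusted p = 0.258 from limma).

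Because the pair may exchange reads, Ly6c1 and Ly6c2 were also added. Their summed RPKM was 1035, 1152 and 978 under the Asic3-null label and 1396, 1270 and 1350 under the WT label. The sum did not overlap between the groups either, at 1055 ± 88.7 against 1339 ± 63.7 RPKM, and its log2 difference was -0.35 (exact permutation test, two-sided p = 0.10). The ratio of Ly6c2 to Ly6c1 was 72.1, 60.1 and 63.1 under the Asic3-null label and 54.6, 69.2 and 51.7 under the WT label. The groups overlapped in this ratio. Taken between values of RPKM + 1, its log2 difference was 0.14 (exact permutation test, two-sided p = 0.40), and between values of RPKM + 0.1 it was 0.16 (exact permutation test, two-sided p = 0.30). The size of this ratio depends on the length taken for Ly6c2, as set out with the order of levels.

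Ly6e, a broadly expressed member known to be induced by interferon, was the antigen with the most reads. It had 662, 739 and 582 RPKM under the Asic3-null label and 486, 828 and 695 RPKM under the WT label. The WT libraries held both the lowest and the highest value, and the Asic3-null libraries lay between them. The means were 661 ± 78.6 and 670 ± 173 RPKM, and the log2 difference was 0.01 (standard error 0.19, adjusted p = 0.991 from limma). Its 95% interval of -0.43 to 0.44 leaves room for a difference of the size measured for Ly6c2 in either direction, and the sign turned when a library was left out. WT replicate 1 also stood apart in the ratio of Ly6e to Ly6c2, which was 0.354 there and between 0.525 and 0.662 in the other 5 libraries.

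Ly6k, known mainly from the testis, had 16.2, 4.35 and 1.65 RPKM under the Asic3-null label and 11.1, 9.97 and 13.7 RPKM under the WT label. Asic3-null replicate 1 had the highest value of all 6 libraries and the other 2 of its group the lowest. The reads behind them were 29, 8 and 3 against 18, 15 and 25. As RPM (reads scaled by library size alone) with exact 95% binomial intervals, which cover counting error only, Asic3-null replicate 1 had 12.5 (8.39 to 18.0) and Asic3-null replicate 3 had 1.28 (0.264 to 3.73), so these libraries of one group differed by more than counting error. The log2 difference between the groups was -0.997 (standard error 0.56, 95% interval -2.26 to 0.27, adjusted p = 0.423 from limma). Without Asic3-null replicate 1 it was -1.73 and passed the threshold (adjusted p = 0.0399 from limma), and without Asic3-null replicate 3 it was -0.38 (adjusted p = 0.756 from limma), so single libraries set both its size and its call.

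The remaining 4 members fell under the mean RPKM of 1 that a gene needed to be tested. Ly6a, encoding Sca-1, had 1 read in 5 of the 6 libraries and none in Asic3-null replicate 2, which gave at most 0.620 RPKM. Ly6i had 1 read in WT replicate 1 and 1 in WT replicate 3, at 0.542 and 0.481 RPKM, and none elsewhere. Ly6g, the neutrophil member, had 1 read in Asic3-null replicate 1, at 1.07 RPKM, and none in the other 5 libraries. Ly6d, known from B lineage cells, was at 0 throughout. The floor of 3 reads set for a count of 0 is here 1.26 to 1.54 RPM depending on the library. The upper end of the exact 95% interval of a count of 0 is higher, at 1.55 to 1.89 RPM. At such counts a difference between the groups was not detectable, and no fold change is given.

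**Figure D2:**
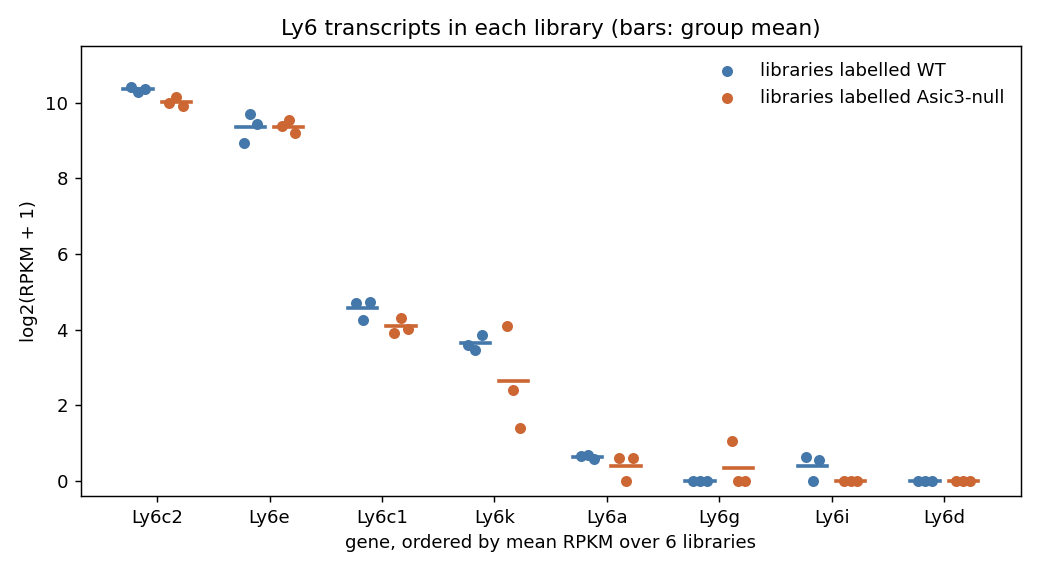
Each point is the log2(RPKM + 1) of a member in a single library, for the 3 WT libraries (blue) and the 3 labelled Asic3-null (orange), and each bar is the mean of a group. Ly6c2 is the only tested member whose groups do not overlap, Ly6k spreads widely among the Asic3-null libraries, and Ly6a, Ly6g, Ly6i and Ly6d lie at or near 0.

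By the deposited RPKM, Ly6c2 was above Ly6e and Ly6e above Ly6c1 in 6 of 6 libraries, with no overlap in either group. The first of these orders rests on gene length. The deposited values imply 801 bases for Ly6c2 and 2301 for Ly6e, whereas the union of GENCODE M21 exons is 2740 bases for Ly6c2, which has a transcript with a retained intron, and 3784 for Ly6e. With those lengths, tried after the data were seen, Ly6e was above Ly6c2 in 5 of 6 libraries and Ly6c2 was 15.4 to 21.5 times Ly6c1. The ratio of a gene's RPKM between libraries does not depend on its length. The tested values do in part, because the added 1, the filter and the intensity trend act on RPKM. With 0.1 added in place of 1, the log2 difference between the groups stayed at -0.34 for Ly6c2 and moved from -0.997 to -1.20 for Ly6k. Ly6c1 was above Ly6k in 5 of 6 libraries, and the ranges of this pair overlapped among the Asic3-null libraries (14.2 to 18.9 against 1.65 to 16.2 RPKM) but not among those labelled WT. Ly6a, Ly6g and Ly6i, each resting on single reads, could not be placed relative to each other.

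Counted together, 0 of the 4 tested members were called by limma at an adjusted p under 0.05, where 3.35% of all tested genes were called (403 of 12037, with 340 or 2.82% lower and 63 or 0.523% higher under the Asic3-null label). limma-voom on the recovered reads also called 0 of 4. At an unadjusted p under 0.05, 2 of the 4 stood, Ly6c1 and Ly6c2, both lower, beside 15.9% of all tested genes. Only Ly6c2 among the 4 did not overlap between the groups, beside 22.6% of all tested genes, 11.4% lower and 11.2% higher. The median log2 difference of the 4 was -0.41, beside a median of 0.03 over all tested genes.

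The largest difference within the cluster was that of a gene outside the list. Ly6a2 (Entrez 546643, chromosome 15, 75131292 to 75135128, minus strand) lies between Ly6c2 and Ly6g and is annotated as a transcribed pseudogene in GENCODE M21 and as protein-coding in RefSeq. It had 13.4, 9.79 and 9.38 RPKM under the Asic3-null label and 67.1, 37.9 and 42.7 RPKM under the WT label, with no overlap. From 59 reads in all against 244, its log2 difference was -2.05 (standard error 0.23, adjusted p = 0.00221 from limma). Its upstream sequence, shown above, was 96.4% identical to that of Ly6c2 over 250 bases and lacked the GAGGAAGT match. Its log2 difference was larger in size than that of Ly6c2 (95% intervals -2.58 to -1.53 and -0.59 to -0.09). Neither the difference between these genes nor a part of the upstream sequence in it was tested. Of the 50-base windows of Ly6a2, 9.58% were shared with another gene, 0.373% with Ly6c2. Of the other 6 genes between the members, Gml, Gml2, Cyp11b1, Cyp11b2 and Ly6m were listed at 0 and Ly6g6g was at most 0.895 RPKM.

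The wider family, other genes with a Ly6/uPAR domain, was measured through a list of 40 symbols, of which 38 were in the table, 15 were above 0 in at least 1 library and 5 were tested. Of these 5, 2 were lower by limma and 0 higher, with a median log2 difference of -0.74. Plaur, the urokinase receptor of myeloid cells, was 43.6, 39.7 and 35.4 RPKM under the Asic3-null label and 62.7, 72.1 and 65.7 RPKM under the WT label (log2 difference -0.74, standard error 0.13, adjusted p = 0.0199 from limma). Leaving out Asic3-null replicate 2 or 3, or any of the 3 WT libraries, ended its call, with adjusted p values from limma up to 0.0914. Cd177, a neutrophil surface antigen, was 27.1, 26.9 and 27.0 RPKM against 134, 80.6 and 82.5 RPKM (log2 difference -1.80, standard error 0.20, adjusted p = 0.00182 from limma), and it was called under every alternative tried. The other 3, Ly6f, Ly6g5b and Lynx1, had log2 differences of -0.39, -0.88 and -0.66 and were not called. Cd59a, an inhibitor of complement on the same list, fell under the mean RPKM of 1 and ran the other way, with 7, 5 and 5 reads under the Asic3-null label and none in the WT libraries. With no filter on low values it was called higher (adjusted p = 0.0101 from limma).

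**Figure D3:**
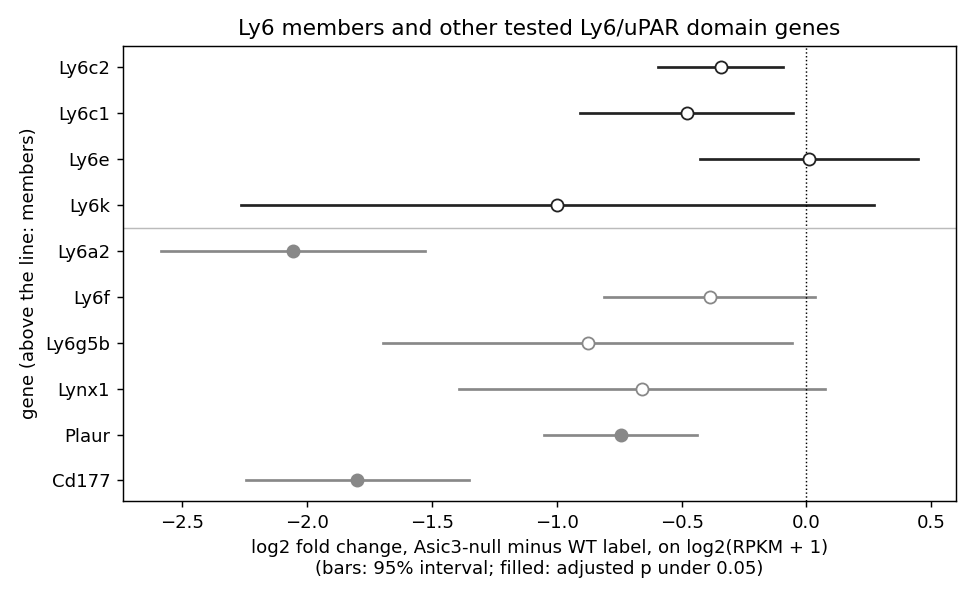
Points give the log2 fold change, Asic3-null minus WT label, on log2(RPKM + 1) for the 4 tested members (above the line), the neighbour Ly6a2 and the 5 tested genes of the wider Ly6/uPAR family, with 95% intervals from limma as bars. Filled points had an adjusted p under 0.05, and these are Ly6a2, Plaur and Cd177, while all 4 members are open.

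The GPI anchor that carries most of these antigens is built in the endoplasmic reticulum by a dedicated set of enzymes. Of the 28 tested genes of GPI anchor synthesis and remodelling, limma called 0, with 1 at an unadjusted p under 0.05 and 0 by limma-voom. The shares of all tested genes to set beside the counts of every list here were 3.35% called by limma and 15.9% at an unadjusted p under 0.05. At so low a share of calls, 0 of 28 does not set these genes apart. Their median log2 difference was 0.05. Pigt, a subunit of the transamidase that attaches the anchor, was between 152 and 168 RPKM under the Asic3-null label and between 136 and 158 RPKM under the WT label. Of 6 tested other GPI-anchored leukocyte proteins, 3 were lower, Bst1, Cd52 and Cd14, with log2 differences of -2.45, -0.69 and -1.36 (adjusted p = 0.00133, 0.0144 and 0.0279 from limma). The call of Cd52 was lost without Asic3-null replicate 1 or 3 or WT replicate 1, and that of Cd14 without any of the 3 Asic3-null libraries or WT replicate 2 or 3, with adjusted p values from limma of at most 0.0676 and 0.0872. Bst1, an enzyme of myeloid and stromal cells, kept its call when each library was left out.

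Interferon induces Ly6a and Ly6e in many cells, so interferon-stimulated genes were listed beside them. Of the 15 tested, 2 were lower and 0 higher by limma, with a median log2 difference of -0.41, and 6 were lower at an unadjusted p under 0.05. The 2 were Mx1 and Zbp1, antiviral proteins, at -1.27 and -1.15 (adjusted p = 0.0383 and 0.0453 from limma). Among the fits that left out 1 library, Mx1 kept its call only without WT replicate 3 and Zbp1 lost its call in all 6, with adjusted p values from limma of at most 0.142 and 0.155. The log2 difference of Ly6e itself was 0.01, as given above.

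Most tested neutrophil granule genes were lower under the Asic3-null label. Of 14 tested neutrophil granule genes, 13 were lower, with a median log2 difference of -2.89 and a summed level of 410 to 611 RPKM under the Asic3-null label against 4509 to 5473 RPKM under the WT label. Cebpe, a transcription factor of granulocyte maturation and the remaining gene, had a log2 difference of 0.40 without overlap and was not called (adjusted p = 0.222 from limma). Of 13 tested monocyte and macrophage genes, 7 were lower and 6 were not called, with a median of -1.10 and sums of 460 to 541 against 999 to 1164 RPKM. The gene lists overlap, so their counts are not independent. Cd177 of the Ly6/uPAR family is among the 13 lower granule genes, and Cd14 of the GPI-anchored proteins is among the 7 lower monocyte genes. The log2 difference of Ly6c2, -0.34, was smaller in size than the median of either list. Of 6 tested stem and progenitor genes, 2 were higher, Meis1 and Gata2, and the sum over the whole list was 534 to 552 against 441 to 486 RPKM. This sum was mostly Flt3 and Cd34, which were not called (adjusted p = 0.358 and 0.433 from limma). Hoxa9, a partner of Meis1 in MLL leukemia and a gene of the same list, had a log2 difference of -0.58 without overlap between the groups and was not called (adjusted p = 0.151 from limma). The call of Meis1 held only without Asic3-null replicate 1, and that of Gata2 only without Asic3-null replicate 2 or WT replicate 3, among the fits that left out 1 library. The part of these shifts in the Ly6 values was not tested.

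Lists of other cell types included several genes that progenitors share and some defining markers at 0. Of 11 T cell genes, 0 were tested, Cd3e, Cd4 and Cd8a were at 0, and the sum was 1.77 to 2.53 RPKM against 1.08 to 2.72 RPKM. Of 6 NK cell genes, 5 were at 0 and the sum was at most 0.138 RPKM. Ms4a1 of the B cell list was at 0, and the list's sum of 39.0 to 48.4 against 43.9 to 53.8 RPKM was mostly Cd79b. Jchain of the same list had 2, 0 and 0 reads under the Asic3-null label against 3, 21 and 13, without overlap, and was not called (adjusted p = 0.134 from limma). In the dendritic cell list the sum was 301 to 338 against 208 to 300.3 RPKM, mostly Flt3, which progenitors also express. The endothelial list summed to 43.5 to 64.8 against 45.8 to 47.3 RPKM, mostly Pecam1, with Kdr, Tek and Emcn at 0. The erythroid list summed to 0.972 to 2.41 against 3.07 to 10.8 RPKM, with Slc4a1 at 0. limma called 0 of the 9 genes tested in these 6 lists, with 3 at an unadjusted p under 0.05 and 0 by limma-voom. Jchain passed without WT replicate 1 (adjusted p = 0.0446 from limma) and Hba-a1 of the erythroid list without WT replicate 3 (adjusted p = 0.0471 from limma).

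The genes whose level followed that of Ly6c2 most closely over the 6 libraries were Sh3bgrl3, Pilrb1, the gene with Entrez number 100861886, S100a1 and Cd68, with Pearson r of 0.994, 0.989, 0.984, 0.982 and 0.982. These r values are a description over 6 libraries that share the same group difference and depth. All 5 had negative log2 differences, from -1.76 to -0.42, and limma called Pilrb1 alone (adjusted p = 0.00983).

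**Figure D4:**
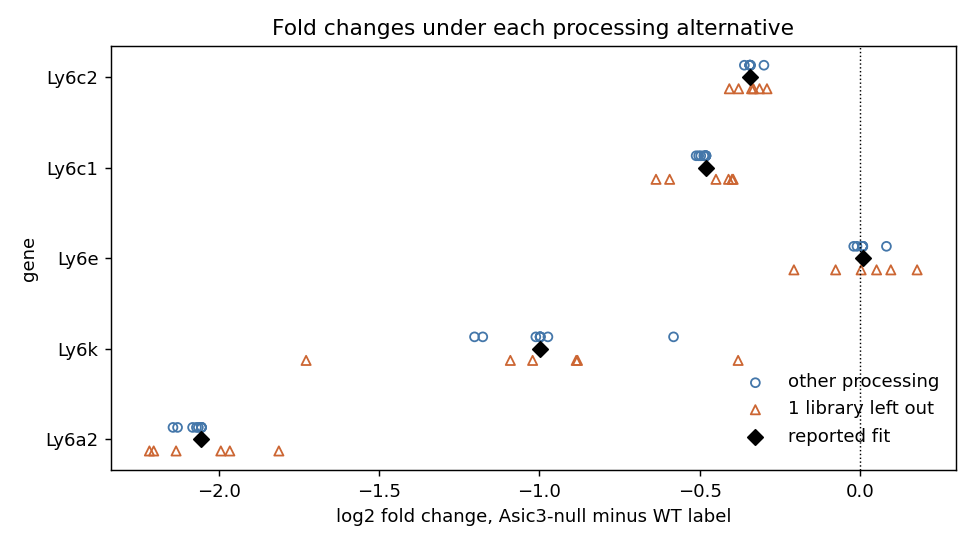
Each row shows the log2 fold change, Asic3-null minus WT label, of a tested member or of Ly6a2 in the reported fit (black diamond), under other processing (circles) and with 1 library left out (triangles). Ly6c2 stays between -0.41 and -0.29 and Ly6c1 between -0.64 and -0.40, Ly6e lies on both sides of 0, and Ly6k runs from -1.73 to -0.38.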

How the data were processed

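Total RNA of sorted LICs was sequenced from libraries made with a TruSeq RNA v2 kit. Per the labels, the authors used CASAVA 1.8.2 and TopHat2 2.0.12 with GRCm38, and they deposited RPKM by gene for each library. The counting tool, its gene annotation and its handling of reads that fit several genes are not given in the sources used here. Sample titles gave the groups and the replicate numbers, with 3 libraries per group.

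From the deposited RPKM values, whole reads were recovered for all 16825 genes above 0 within 0.0001 reads, which gave library sizes of 2315406, 2381861 and 2348251 (Asic3-null) and 2102707, 1947168 and 2367414 (WT). Reads carry no molecular identifiers, so intervals cover counting error only. Symbols came from RefSeq (25275 of 27179, plus 18 from GENCODE M21). No pair of libraries of a group agreed within counting noise (chi-square per degree of freedom of 3.79 to 7.66), so none was treated as a library deposited again. This does not show that they came from separate animals.

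Genes averaging 1 RPKM or more over the libraries, 12037 in all, were tested as log2(RPKM + 1) by limma 3.58.1 (R 4.3.3, empirical Bayes with an intensity trend, label as the only term, Benjamini-Hochberg over all tested genes, threshold 0.05). Single values were compared by exact permutation. Windows of 50 and 100 bases were taken from the protein-coding transcripts of each gene in GENCODE M21 (from all transcripts of Ly6a2, which has no protein-coding one) and searched on both strands in all GENCODE M21 transcripts. The steps were tested on simulated data. The members and the gene lists were chosen with earlier results of these data known, and the wider lists came from general knowledge. All members are named, together with called genes of each list (at most 5, lowest p first, and not all of them given values here), genes between the members on chromosome 15, Asic3, sex-linked genes and the 5 genes most like Ly6c2. Ly6f, Ly6g5b, Lynx1, Cd59a, Hoxa9 and Cebpe were named after their values were seen. Alternatives were quantile normalization, median-ratio scaling, limma-voom on recovered reads, RPKM without the log, no trend, a pseudocount of 0.1, no filter, a minimum mean of 5 RPKM, a replicate block and leaving out each library.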

Additional observations from a re-analysis of the deposited data

How the results depend on the processing

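The adjusted count of tested members called stayed at 0 of 4 under 14 of 15 alternatives and was 1, Ly6k, without Asic3-null replicate 1, a range of 0 to 1 over the fits that left out a library. Ly6c2 kept its sign in all 15, between -0.41 and -0.29 on the log2 scale with an adjusted p of 0.105 to 0.770 from limma, and Ly6c1 kept its sign between -0.64 and -0.40. Ly6e had no stable sign. It was -0.0085 with median-ratio scaling, -0.019 on untransformed RPKM and -0.21 to 0.18 with a library left out, negative at -0.075 without Asic3-null replicate 2 and at -0.21 without WT replicate 1. Ly6a2 kept its sign in all 15 and lost its call on untransformed RPKM (adjusted p = 0.0503 from limma). With a library left out the sign also turned for Bst2 (-0.086 to 0.31), Pecam1 (-0.041 to 0.30) and Cd79b (-0.15 to 0.018), none of them called. Beyond fits without a library, calls were lost with no intensity trend (Plaur, Cd52, Cd14, Meis1 and Gata2), with no filter and on untransformed RPKM (Asic3, Cd14, Mx1, Meis1 and Gata2), with quantile normalization (Zbp1 and Gata2), with a pseudocount of 0.1 (Zbp1) and with the replicate block (Asic3, Plaur, Cd52, Mx1, Zbp1, Meis1 and Gata2), at adjusted p values of 0.0505 to 0.126 from limma.

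Over all tested genes, 403 were called, 206 on untransformed RPKM, and 203 to 293 with a library left out, where fewer samples entered; 543 were called by limma-voom. The replicate numbers did not pair the libraries, since the residuals of same-numbered libraries correlated at 0.06, -0.06 and -0.12. With the replicate number as a block, 246 genes and 0 members were called, Ly6c2 was -0.34 (adjusted p = 0.332 from limma), the summed Ly6c1 and Ly6c2 differed by -0.35 on log2(RPKM + 1) and the log2 ratio between values of RPKM + 1 by 0.14. The sum lay between -0.41 and -0.29 and the ratio between 0.06 and 0.26 over their 10 alternatives. The cause of these changes was not tested. Depth limits Ly6a, Ly6d, Ly6g and Ly6i, which had at most 1 read per library, and the 3 to 29 reads of Ly6k.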
